A study of Rattus norvegicus with 39 samples.

Results

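The 9 genes described here were the p53 targets Cdkn1a, Mdm2, Ccng1 and Phlda3, the Polo-like kinases Plk2 and Plk3, and the growth arrest genes Gadd45a, Gadd45b and Gadd45g. They were taken by the gene symbol that the array platform gives each probe set, and each was read by 1 probe set, so 9 of 18891 named genes on the array are reported. RNA of rat liver had been hybridized to 39 arrays in 13 groups of 3. In male Wistar rats, 5 to 6 weeks old, the vessels that feed the left lobe and the median lobe, 70% of the liver, were clamped for 30 min under isoflurane, and tissue was taken at 0, 0.5, 2 or 6 hr of reperfusion. The reperfused sample joined the left and median lobes, and the non-ischemic sample was the right lobe of the same rat, which kept its blood flow under the same anesthesia and surgery. Sham rats had the liver handled without a clamp and were taken at the same 4 times (3 rats each, 12 in all), and 3 rats were unoperated. The lobe sampled in the shams is not given in the sources used here. The 12 rats with both lobes gave 24 arrays. In whole liver, fewer cells of a type and less RNA per cell cannot be told apart.

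p53 is a transcription factor held at low protein levels by the ubiquitin ligase Mdm2, which it induces itself in a feedback loop. When DNA damage, hypoxia or oxidative stress stabilizes p53, it switches on genes that halt the cell cycle, repair DNA or start cell death. Several of these genes, Cdkn1a and the Gadd45 and Plk families among them, are also immediate or delayed early genes that answer growth factors, glucocorticoids and stress kinases without p53. In liver they are known to respond to partial hepatectomy, fasting and toxic injury.

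Values below are log2 of the normalized probe set intensity, and a difference of 1 is a doubling. A probe set was tested where its interquartile range over the 36 operated arrays was above the median of 0.258, which 11704 of 23409 probe sets were, among them 8 of the 9 genes. Mdm2 stayed under that limit. Levels are not compared between genes, since each probe set has its own brightness. The test was limma on the groups compared, with Benjamini-Hochberg adjusted p (q) over all 11704 and a threshold of 0.05. As a second fit the lobe comparison kept the rat as a block, since the lobes of 1 rat deviated together.

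Median intensities ran from 39.6 to 43.6 after normalization, which itself brings arrays to a like brightness. The highest was that of array 3 of the reperfused lobes at 6 hr, followed by array 1 of the reperfused lobes at 0.5 hr (42.1). All 6 hepatocyte markers were measured, and their summed level lay between 21.29 and 21.76 on all 39 arrays. Alb and Ttr, the brightest of them (19.90 and 19.59 on average), weigh most in that linear sum. Single markers were less even. Tat read 19.40 on array 1 of the non-ischemic lobes at 0.5 hr and 16.19 on array 3 of the reperfused lobes at 6 hr, the array with the lowest sum. Of the arrays that bear on the results, array 3 of the reperfused lobes at 6 hr stood apart. It held the highest value of all 39 arrays for 9.36% of the tested probe sets, and Epcam, an epithelial marker, read 11.30 there against 7.36 and 8.23 on arrays 1 and 2. Of the other cholangiocyte markers, Krt19, Krt7 and Sox9 read 5.84, 4.17 and 6.26 there, against 4.15 to 6.15 on the other arrays of the group, and the summed neutrophil markers read 9.12 there against 7.27 and 7.22. Array 1 of the non-ischemic lobes at 6 hr had a neutrophil sum of 8.90 against 7.16 and 7.09, with Epcam at 8.53 against 7.15 and 7.05. At 0.5 hr all 3 reperfused lobes exceeded the non-ischemic lobe of their rat in the platelet gene Pf4 (12.31, 7.95 and 7.82 against 6.13, 6.09 and 6.21) and the erythroid gene Alas2 (14.43, 10.84 and 9.59 against 10.13, 9.26 and 8.63), array 1 by the most. Hbb was higher in each rat too, but the platelet gene Ppbp read 7.21, 5.18 and 5.72 against 5.29, 5.54 and 5.51, so rat 2 went the other way. The summed red cell and platelet markers read 14.74, 11.16 and 10.21 against 10.43, 9.70 and 9.21 in these rats. Sums are of linear values, so Alas2, the brightest of these markers, makes up most of that sum. The neutrophil sum read 8.32, 7.23 and 6.65 against 7.02, 6.68 and 6.5. The part of these in the results was not tested. For the 9 genes, calls against all shams were refitted without the array concerned, and calls lost that way are named. Calls of other genes, and lobe calls with the rat as a block, were not refitted in this way.

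The plot of all 39 values shows when and where each gene was highest. Plk2 and the Gadd45 genes reached their highest group mean at 0.5 hr, Gadd45b in the non-ischemic lobes and the others in the reperfused lobes. Cdkn1a and Plk3 were highest in the non-ischemic lobes at 2 hr, and Ccng1 was highest in the reperfused lobes at 2 hr. Mdm2 and Phlda3 spanned only 0.81 and 0.78 between their highest and lowest group means, whereas Cdkn1a spanned 5.80 and Gadd45b 5.45.

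**Figure D1:**
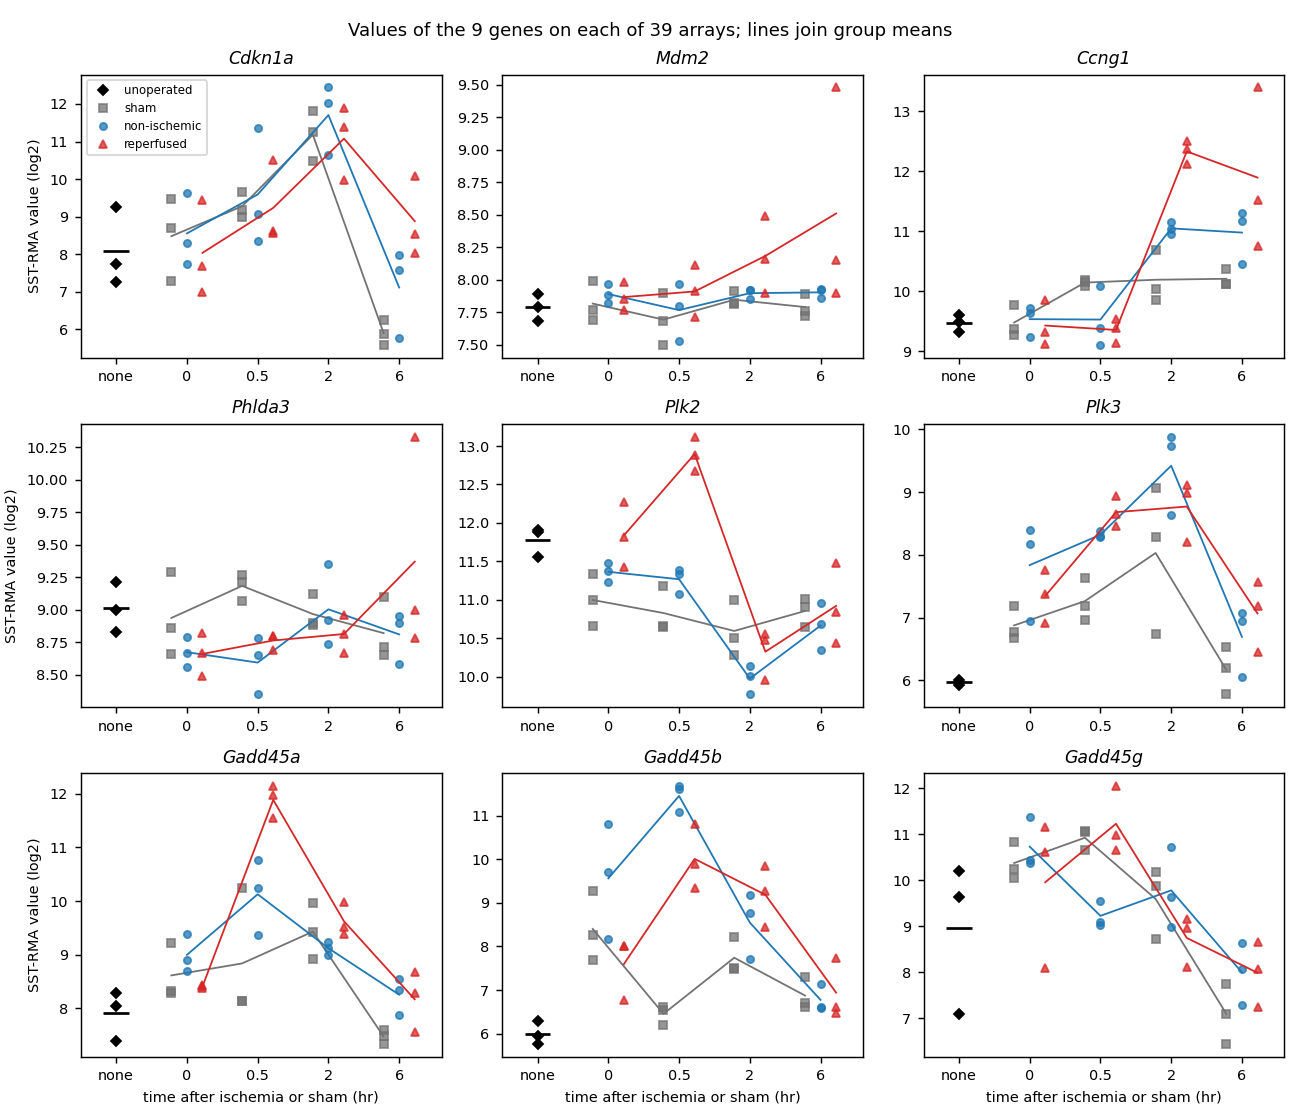
Normalized log2 value (y axis) of the 9 genes on each of the 39 arrays by hours after ischemia or sham operation (x axis; none, unoperated), with lines or bars at group means of 3 arrays. The reperfused lobes at 0.5 hr lie above every other array for Plk2 (12.68 to 13.12) and Gadd45a (11.54 to 12.14), and array 3 at 6 hr stands alone for Mdm2 (9.48) and Phlda3 (10.33).

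Cdkn1a encodes p21, the inhibitor of cyclin-dependent kinases that halts cells in G1. Its level rose and fell with time after surgery in every arm, shams included. The unoperated livers read 7.73, 9.26 and 7.27, and the shams read 8.70, 7.28 and 9.46 at 0 hr. Later shams read 9.65, 9.18 and 9.0 (0.5 hr), 11.81, 10.48 and 11.25 (2 hr) and 5.59, 6.25 and 5.87 (6 hr). The 2 hr shams were thus all above the other shams and the 6 hr shams all below them, with no overlap.

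The non-ischemic lobes followed the same course for Cdkn1a, with 9.62, 8.29 and 7.75 (0 hr), 11.35, 9.07 and 8.35 (0.5 hr), 12.44, 12.03 and 10.64 (2 hr) and 7.98, 7.59 and 5.77 (6 hr). The reperfused lobes read 9.44, 7.68 and 6.99, then 10.50, 8.63 and 8.57, then 11.88, 11.38 and 9.97, and last 8.02, 8.54 and 10.08. Up to 2 hr the 3 arms overlapped at every time. Within rats the reperfused lobe was lower in each rat at 0 hr (-0.18, -0.61 and -0.76) and at 2 hr (-0.56, -0.65 and -0.67). At 0.5 hr the differences were -0.85, -0.44 and 0.22. No lobe difference of Cdkn1a passed limma's threshold at these times, with or without the rat as a block. At 6 hr all 3 reperfused samples lay above all 3 shams.

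The Cdkn1a result depended on which shams were used. Against all 12 shams no lobe differed at any time, and the 2 hr differences of 2.37 (SE 1.11, q = 0.164, reperfused) and 2.99 (SE 1.11, q = 0.0787, non-ischemic) did not pass. With shams of the same time alone the 2 hr differences were -0.10 (q = 0.952) and 0.52 (q = 0.69), and the 6 hr reperfused lobes were higher by 2.97 (SE 0.50, q = 0.0102), a fold of 7.86. Without the 6 hr array that stood apart, that difference was 2.38 (SE 0.24, q = 0.00183). The non-ischemic lobes at 6 hr read 1.21 above their shams (SE 0.52, q = 0.151). Within rats, the reperfused lobe was 0.05, 0.95 and 4.31 above the non-ischemic lobe at 6 hr, a mean of 1.77 with an SD of 2.25 over the 3 rats. The limma fit without the block, which does not use the pairing, gave SE 0.71 and q = 0.998.

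Ccng1 encodes cyclin G1, a p53 target that recruits a phosphatase to Mdm2. Both lobes were above shams at 2 and 6 hr. The unoperated livers read 9.32, 9.60 and 9.49. At 0 hr all arms were near that level, with the shams at 9.28 to 9.78, the non-ischemic lobes at 9.24 to 9.73 and the reperfused lobes at 9.12 to 9.85. At 0.5 hr the shams had reached 10.09, 10.16 and 10.19, whereas the reperfused lobes read 9.54, 9.14 and 9.39, all lower.

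At 2 hr the arms of Ccng1 lay apart, in another order. The shams read 10.04, 9.85 and 10.69, the non-ischemic lobes 11.16, 11.04 and 10.95, and the reperfused lobes 12.38, 12.12 and 12.50. No value of 1 arm overlapped another. The reperfused lobes lay 2.32 above all shams (SE 0.23, q = 1.03e-05, fold 5.0) and 2.14 above the 2 hr shams (q = 0.00874). The non-ischemic lobes lay 1.04 above all shams (SE 0.22, q = 0.00888), a difference that did not pass without array 1 or array 2 of that group (0.99 and 1.04) or against the 2 hr shams alone (0.85, q = 0.24).

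In each rat the reperfused lobe exceeded the non-ischemic lobe for Ccng1 by 1.22, 1.07 and 1.55 at 2 hr, a mean of 1.28 (fold 2.43). The limma fit without the block, which does not use the pairing, gave SE 0.16 and q = 0.0431. With the rat as a block the SE was 0.16 and q = 0.0072. The summed cholangiocyte markers were also higher in each of these reperfused lobes, at 8.66, 8.53 and 9.0 against 8.16, 8.06 and 8.07, and their part was not tested. In this linear sum Epcam, the brightest of them (7.31 on average over 39 arrays), weighs most. Sox9, Krt19 and Krt7 averaged 6.09, 5.40 and 4.27. The single markers at 2 hr are not given here, so the sum alone does not show a change of cholangiocytes. Without the block the call was lost in each of the 6 fits that left 1 array out, with differences of 1.2 to 1.39.

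At 6 hr Ccng1 read 10.13, 10.12 and 10.38 in shams, 11.31, 10.46 and 11.17 in non-ischemic lobes, and 10.76, 11.53 and 13.40 in reperfused lobes. The lobes were above the 6 hr shams in all 6 samples. Against all shams the reperfused lobes were higher by 1.89 (SE 0.38, q = 0.00168), and by 1.14 (q = 0.0106) without array 3. Against the 6 hr shams alone the difference of 1.69 did not pass (SE 0.60, q = 0.09), and without array 3 it was 0.94 (SE 0.24, q = 0.0283). The non-ischemic lobes were 0.97 above all shams (SE 0.24, q = 0.00919) and 0.77 above the 6 hr shams (q = 0.0607), and the first call was lost without array 1 of the group (0.81), the array with the high neutrophil sum.

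The 5′ flanks of Cdkn1a and Ccng1 are shown because both hold a match to the p53 site, the 20-base p53 consensus read with no spacer and at most 1 mismatch on either strand. The site is in capitals. The sequences are RefSeq's, on build GRCr8, written 5′ to 3′ on the gene's strand: Cdkn1a at chr20:7150682-7150819, plus strand, the 138 bases of its window that lie before the gene record, and Ccng1 at chr10:25684877-25685126, minus strand, the 250 bases before the start site.
Cdkn1a: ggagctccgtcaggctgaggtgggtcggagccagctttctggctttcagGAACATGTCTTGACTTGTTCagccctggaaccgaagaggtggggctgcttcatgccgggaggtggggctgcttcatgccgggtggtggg
Ccng1: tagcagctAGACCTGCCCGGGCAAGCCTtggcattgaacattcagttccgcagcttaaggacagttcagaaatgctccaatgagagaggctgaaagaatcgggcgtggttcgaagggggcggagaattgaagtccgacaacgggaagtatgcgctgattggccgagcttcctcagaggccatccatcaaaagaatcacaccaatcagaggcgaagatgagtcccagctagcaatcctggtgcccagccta
Of 33469 RefSeq promoter windows of 250 bases before a start site, 20 (0.0598%) held such a match. No other window of the 9 genes did at this limit. The windows of Mdm2 and Gadd45b lay wholly inside their gene records, and bases outside the windows were not read for any gene. A match is a description of the letters and not evidence of binding.

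Mdm2, the ligase that closes the p53 loop, and Phlda3, an inhibitor of the kinase Akt, changed least. Mdm2 lay between 7.50 and 8.16 on all arrays but 2 of the reperfused lobes, 8.49 (array 3 at 2 hr) and 9.48 (array 3 at 6 hr). In a fit of all 23409 probe sets with no filter, the reperfused lobes were above all shams by 0.40 at 2 hr (SE 0.11, q = 0.0363) and 0.72 at 6 hr (SE 0.21, q = 0.0305), where 6.89% and 16.6% of all probe sets passed. Without array 3 of its group each difference was 0.24, with q = 0.233 at 2 hr and q = 0.173 at 6 hr. The 2 hr difference also missed the threshold without array 1 (0.41, q = 0.118). Phlda3 read 8.78, 9.0 and 10.33 in the reperfused lobes at 6 hr and 8.35 to 9.35 on all other arrays. It passed no test against all shams, and against the 0.5 hr shams the non-ischemic lobes at 0.5 hr were lower by 0.59 (q = 0.0482).

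Plk2 encodes a kinase of the centriole cycle that is also an early response gene and a p53 target. At 0.5 hr the reperfused lobes exceeded both the other lobe and the shams. The unoperated livers read 11.88, 11.91 and 11.56, and all 12 shams were lower, at 10.28 to 11.34. The difference between shams and unoperated livers was -0.96 (SE 0.18, q = 0.0105), and it did not pass without unoperated array 1 (-0.92) or 2 (-0.90).

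At 0 hr the reperfused lobes read 12.27, 11.81 and 11.43 for Plk2, each above every sham of any time, and the non-ischemic lobes 11.23, 11.48 and 11.38. The 0 hr difference from all shams was 1.02 (SE 0.20) and did not pass (q = 0.134). At 0.5 hr the reperfused lobes read 13.12, 12.89 and 12.68, above all other arrays, whereas the non-ischemic lobes read 11.33, 11.39 and 11.08.

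At 0.5 hr the neutrophil sum, and the red cell and platelet sum that is mostly Alas2, were higher in the reperfused lobe of each rat. That lobe exceeded the non-ischemic lobe of its own rat for Plk2 by 1.79, 1.5 and 1.60, a mean of 1.63 (fold 3.10). The limma fit without the block, which does not use the pairing, gave SE 0.16 and q = 0.0198. With the rat as a block q was 0.00477. Without the block the call was lost in 5 of the 6 fits that left 1 array out (differences of 1.52 to 1.70). Against all shams the reperfused lobes were higher by 2.08 (SE 0.18, q = 3.24e-06, fold 4.23), and by 1.97 (q = 0.00013) without the array rich in Pf4 and Alas2. By 2 hr the level had turned, with 9.77, 10.14 and 10.01 in the non-ischemic lobes and 9.95, 10.55 and 10.47 in the reperfused lobes. The non-ischemic lobes were then 0.84 below all shams (SE 0.18, q = 0.00933), which did not pass without array 1 (-0.74) or against the 2 hr shams (-0.62, q = 0.336). At 6 hr all lobes lay between 10.35 and 11.48.

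Plk3 is a stress-activated kinase of the same family. No lobe comparison passed for it. The unoperated livers read 5.97, 6.01 and 5.93, below all shams but 1, and the difference of shams from them, 1.12, did not pass (SE 0.48, q = 0.25). The 2 hr shams were spread widely, at 9.07, 6.74 and 8.28. The highest values were those of the non-ischemic lobes at 2 hr, at 8.64, 9.88 and 9.74, beside 8.20, 9.12 and 8.99 in the reperfused lobes. At 6 hr every arm had fallen back, to between 5.78 and 7.56.

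Against all shams Plk3 was higher at 2 hr by 2.33 in non-ischemic lobes (SE 0.50, q = 0.00933) and by 1.69 in reperfused lobes (SE 0.49, q = 0.034). Against the wide 2 hr shams these were 1.38 (q = 0.399) and 0.74 (q = 0.58). The first call was lost without array 2 of its group (2.10), and the second without any 1 of its 3 arrays (1.51 to 1.97), without array 2 of the 0 hr shams (1.65) or with no filter. Against the 0.5 hr shams (6.97, 7.63 and 7.19) both lobes were higher at 0.5 hr with no overlap. The reperfused lobes read 8.93, 8.65 and 8.46, a difference of 1.41 (q = 0.00655), and the non-ischemic lobes 8.28, 8.30 and 8.38, a difference of 1.05 (q = 0.0104). Within rats the reperfused lobe was the lower at 2 hr, by 0.43, 0.76 and 0.75, a mean of -0.65 with q = 0.068 under the block and q = 0.81 without it.

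The Gadd45 proteins are small nuclear proteins that bind PCNA, p21 and the Cdk1 and cyclin B1 complex, and that switch on the kinase Map3k4 above p38 and JNK. All 3 genes had their highest group mean at 0.5 hr, Gadd45a and Gadd45g in the reperfused and Gadd45b in the non-ischemic lobes.

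Gadd45a is the family member that p53 induces directly. It read 8.05, 8.28 and 7.39 in unoperated livers and, at 0 hr, 8.37, 8.41 and 8.44 in the ischemic lobes, below 9.39, 8.90 and 8.70 in the non-ischemic lobes. At 0.5 hr the order had turned. The reperfused lobes read 12.14, 11.98 and 11.54, above every other array of the study, and the non-ischemic lobes 10.76, 10.25 and 9.37. The 0.5 hr shams read 10.25, 8.13 and 8.13, so 1 sham lay among the non-ischemic lobes.

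Against all shams the reperfused lobes at 0.5 hr were higher for Gadd45a by 3.30 (SE 0.52, q = 0.00241, fold 9.85), and by 3.17 (q = 0.0299) without array 1. The non-ischemic lobes were 1.54 above all shams (SE 0.54, q = 0.174). The neutrophil sum, and the red cell and platelet sum that is mostly Alas2, were higher in each reperfused lobe at 0.5 hr. Within rats the reperfused lobe was then higher for Gadd45a by 1.38, 1.73 and 2.17, a mean of 1.76. That difference did not pass without the block (SE 0.35, q = 0.23) and passed with it (SE 0.16, q = 0.0193). At 2 hr the reperfused lobes read 9.98, 9.51 and 9.38, above the non-ischemic lobes (9.23, 9.0 and 9.13) by 0.50 (q = 0.559), and overlapped the 2 hr shams (8.91, 9.42 and 9.96). At 6 hr the shams had fallen to 7.60, 7.48 and 7.34. The non-ischemic lobes at 8.35, 7.87 and 8.54 were above these by 0.78 (SE 0.19, q = 0.0353) and below all shams together by 0.33 (q = 0.678), so that the direction turned with the shams used.

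Gadd45b, a target of NF-kB and TGF-beta signals that limits JNK signaling in liver, was highest in the lobe that was never clamped. The unoperated livers read 5.77, 5.94 and 6.29, and the 0 hr shams 8.25, 7.68 and 9.27. At 0 hr the non-ischemic lobes read 10.80, 9.70 and 8.18 and the ischemic lobes of the same rats 8.0, 8.0 and 6.78, so each ischemic lobe was lower, by 2.81, 1.69 and 1.39. At 0.5 hr the non-ischemic lobes read 11.60, 11.08 and 11.67 and the reperfused lobes 9.33, 10.80 and 9.89, lower again in each rat, by 2.28, 0.28 and 1.78. All 6 lobes were above all 3 shams of that time, at 6.20, 6.61 and 6.55.

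The non-ischemic lobes at 0.5 hr exceeded all shams for Gadd45b by 4.08 (SE 0.49, q = 0.000256, fold 16.9) and the 0.5 hr shams by 5.0 (SE 0.20, q = 1.81e-05, fold 31.9). For the reperfused lobes the differences were 2.64 (SE 0.51, q = 0.0127) and 3.55 (SE 0.34, q = 0.0011). The first of these did not pass without array 2 of the group (2.24, q = 0.0963). The lobes themselves differed by -1.96 at 0 hr and -1.44 at 0.5 hr, and neither passed, with q = 0.9999 and 0.462 without the block and q = 0.254 and 0.184 with it. At 2 hr the reperfused lobes read 8.45, 9.84 and 9.26 and the non-ischemic lobes 8.77, 9.17 and 7.70. The reperfused lobes were then 1.82 above all shams (SE 0.51, q = 0.0267), lost without array 2 (1.49) or 3 (1.78) and against the 2 hr shams (1.45, q = 0.105). At 6 hr all arms lay between 6.47 and 7.73.

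Gadd45g, a gene of cytokine and growth-arrest responses, differed between the lobes at 0.5 hr, when the non-ischemic lobes were below the shams of that time and the reperfused lobes overlapped them. The unoperated livers were spread over 10.19, 9.63 and 7.10. The 0.5 hr shams read 11.06, 11.05 and 10.66, the reperfused lobes 12.04, 10.99 and 10.65, and the non-ischemic lobes 9.55, 9.03 and 9.10. The reperfused lobes overlapped the shams, with a difference of 0.30 (SE 0.33, q = 0.594), and the non-ischemic lobes were all below them, by 1.70 (SE 0.19, q = 0.00156). Against all 12 shams, which ranged from 6.45 to 11.06, neither lobe passed.

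Within rats the reperfused lobe was above the non-ischemic lobe for Gadd45g by 2.49, 1.96 and 1.55 at 0.5 hr, a mean of 2.00 (fold 4.01), beside the same marker sums. The call needed the block, with SE 0.35 and q = 0.162 without it and SE 0.19 and q = 0.0193 with it. At 2 hr the difference was the other way in each rat, at -1.76, -0.48 and -0.86 (mean -1.04, q = 0.0556 with the block). At 6 hr the lobes of each rat read almost alike, at 8.63, 8.08 and 7.28 non-ischemic and 8.65, 8.08 and 7.24 reperfused, while the shams read 7.09, 6.45 and 7.75.

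**Figure D2:**
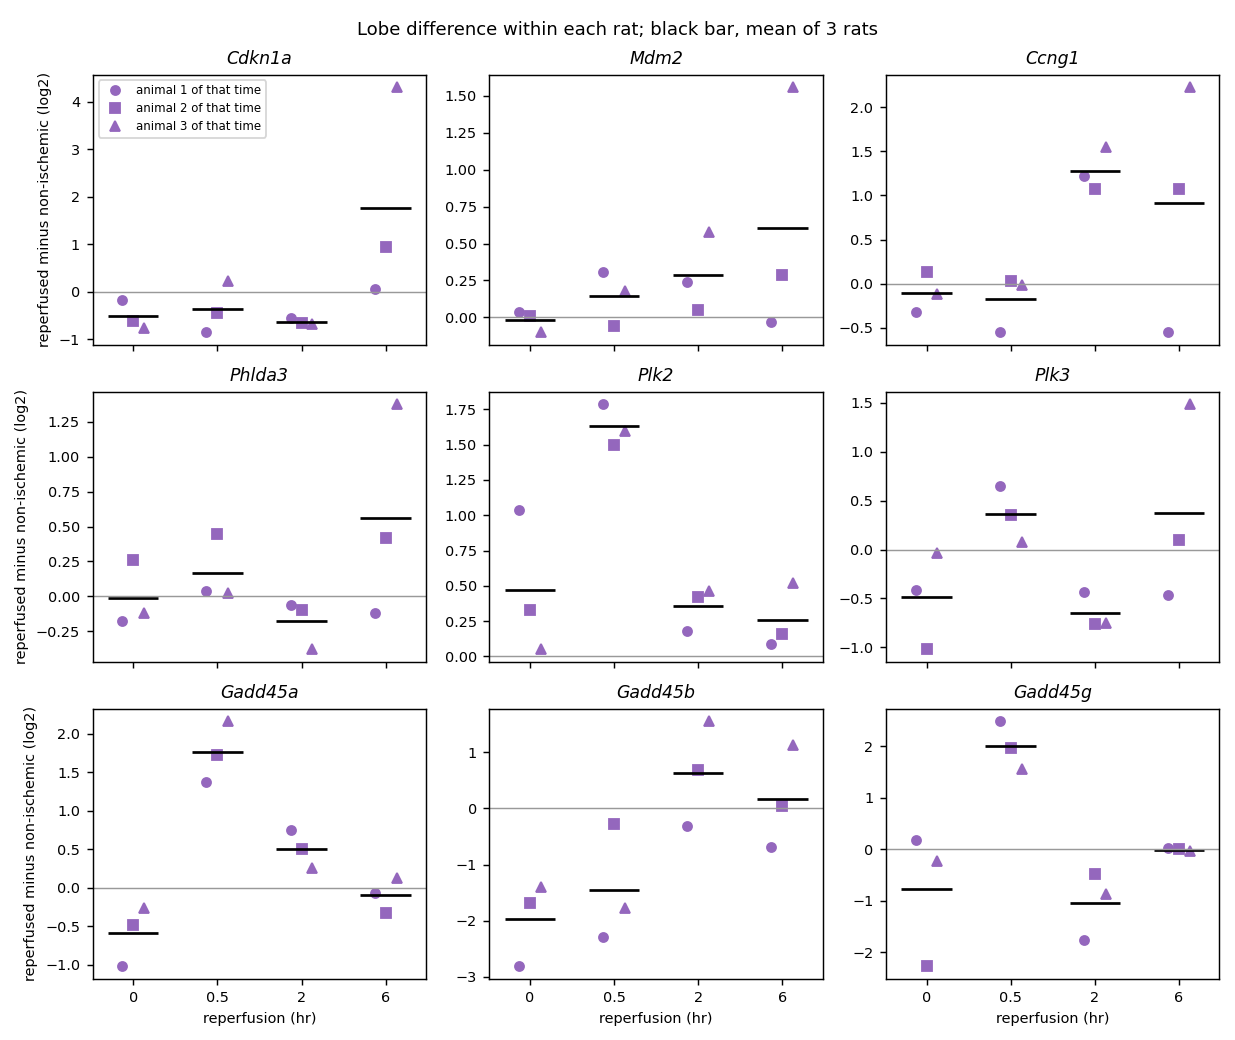
Reperfused minus non-ischemic log2 value (y axis) within each of the 12 rats at 0, 0.5, 2 and 6 hr (x axis), with 1 point for each rat and a black bar at the mean of 3. At 0.5 hr all 3 rats were above 0 for Plk2 (1.5 to 1.79), Gadd45a (1.38 to 2.17) and Gadd45g (1.55 to 2.49) and below 0 for Gadd45b (-2.28 to -0.28).

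The 5′ flanks of the 3 genes whose lobe difference passed at 0.5 hr are shown for the letters they do and do not share. Each is the 250 bases before the RefSeq start site on GRCr8, on the gene's strand: Plk2 at chr2:43702286-43702535, plus strand, Gadd45a at chr4:97486800-97487049, minus strand, and Gadd45g at chr17:13530352-13530601, minus strand. Capitals mark the cAMP response element TGACGTCA in Plk2 and the octamer ATTTGCAT in both Gadd45 genes.
Plk2: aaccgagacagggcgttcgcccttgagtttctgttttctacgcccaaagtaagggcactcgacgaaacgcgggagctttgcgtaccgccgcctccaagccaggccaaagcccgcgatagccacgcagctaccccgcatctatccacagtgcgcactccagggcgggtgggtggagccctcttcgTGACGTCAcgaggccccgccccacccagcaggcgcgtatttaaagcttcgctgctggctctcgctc
Gadd45a: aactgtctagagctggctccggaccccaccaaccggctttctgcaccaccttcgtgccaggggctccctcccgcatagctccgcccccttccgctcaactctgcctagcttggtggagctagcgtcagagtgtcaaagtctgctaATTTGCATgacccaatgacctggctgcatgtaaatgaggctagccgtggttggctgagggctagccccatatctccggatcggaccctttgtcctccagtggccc
Gadd45g: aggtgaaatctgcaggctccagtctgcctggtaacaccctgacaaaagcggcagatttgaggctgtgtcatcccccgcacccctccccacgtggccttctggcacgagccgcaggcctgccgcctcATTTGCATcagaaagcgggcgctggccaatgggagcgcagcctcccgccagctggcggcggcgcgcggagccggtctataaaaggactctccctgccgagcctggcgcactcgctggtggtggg
Both strands of all 9 windows were read for 8 motifs. TGACGTCA was found in 1.59% of the 33469 windows and, among the 9 genes, in Plk2 alone, and ATTTGCAT in 1.56% and in Gadd45a and Gadd45g alone. The core TGACG, which lies within TGACGTCA, was in 18.2% of windows and in Cdkn1a, Mdm2, Plk2, Plk3 and Gadd45a, and CACGTG was in 5.59% and in Gadd45b and Gadd45g. The AP-1 site TGANTCA (6.34%), the CArG box (1.5%) and the NF-kB site (6.33%) were in none of the 9 windows.

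Counted over the 8 tested genes, the lobe comparison gave 0 calls at 0 hr, 1 at 0.5 hr, 1 at 2 hr and 0 at 6 hr by limma. Of all tested probe sets 0%, 0.154%, 0.111% and 0% passed. With an unadjusted threshold of 0.05 on p, limma called 2, 4, 3 and 1 of the 8. The share of all tested probe sets under that unadjusted threshold was not taken, here or below. Unadjusted counts thus have no background beside them, and the percentages of probe sets that passed are for q. With the rat as a block the calls were 0, 3, 1 and 0 (4, 5, 6 and 0 unadjusted), where 0%, 0.974%, 1.85% and 0% of all tested probe sets passed. At 0.5 hr the groups did not overlap for 5 of the 8 genes, 4 higher and 1 lower in the reperfused lobes, where 4.59% of tested probe sets were wholly higher and 6.29% wholly lower.

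Against the 12 pooled shams, which all of these comparisons share, the reperfused lobes had 0, 3, 3 and 1 of the 8 genes past the threshold at 0, 0.5, 2 and 6 hr, all higher. Of all tested probe sets 0%, 1.63%, 12.8% and 29.3% passed. The non-ischemic lobes had 0, 1, 3 and 1, with Plk2 at 2 hr the lower one, against 0.0342%, 1.17%, 14% and 25.2%. Unadjusted, limma called 3 genes in the ischemic and 2 in the non-ischemic lobes at 0 hr. The median difference of the 8 genes in the reperfused lobes was 1.66 at 0.5 hr and 1.36 at 2 hr, beside -0.02 and -0.01 over all tested probe sets. The genes were chosen with earlier results of these data known. These medians and the counts of calls thus describe the genes chosen and are no test of them as a set. With same-time shams the 8-gene medians were 0.86 and 0.05. At 6 hr the 1 called gene of 8 was below the background share.

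The shams of the same time changed these counts. The reperfused lobes then had 0, 5, 1 and 1 calls, where 0%, 11.4%, 1.74% and 18.8% of all tested probe sets passed. At 0.5 hr 4 of these were higher and 1 lower, Ccng1 (-0.79, q = 0.0164 by limma). The non-ischemic lobes had 0, 4, 0 and 1, where 0%, 12%, 0.00854% and 15.2% passed. Their calls at 0.5 hr were 2 higher and 2 lower, the lower ones Phlda3 and Gadd45g. Unadjusted limma called 1 gene in either lobe at 0 hr and 3 in the non-ischemic lobes at 2 hr. The plot of both sets of differences shows that Plk2, Gadd45a and Gadd45b in the reperfused lobes at 0.5 hr, Gadd45b in the non-ischemic lobes at 0.5 hr and Ccng1 in the reperfused lobes at 2 hr passed under both. Shams against unoperated livers gave 1 call, Plk2, against 2.25%.

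**Figure D3:**
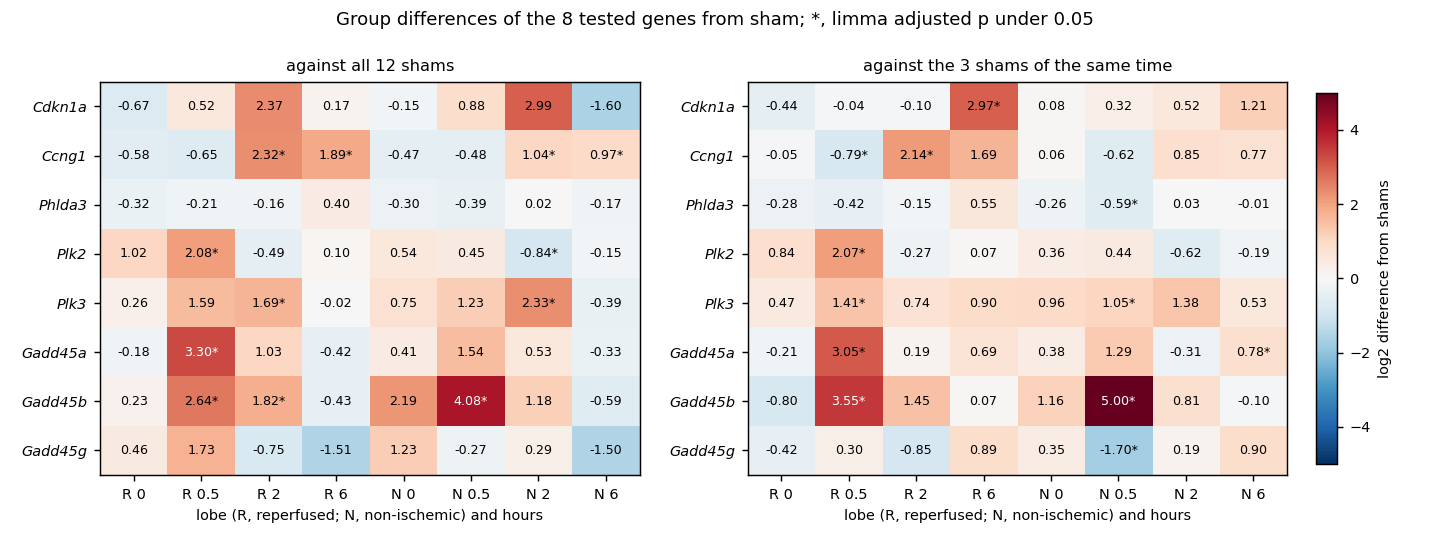
Log2 difference of each lobe and time (columns) from all 12 shams (left) and from the 3 shams of the same time (right) for the 8 tested genes (rows), with an asterisk where limma's q was under 0.05. The 2 hr values of Cdkn1a, 2.37 and 2.99 on the left, are -0.10 and 0.52 on the right.

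Change with time was tested within each arm. Over the 4 times, 7 of 8 genes passed limma's F-test in the reperfused lobes (28.6% of all tested probe sets), 7 in the non-ischemic lobes (29.3%) and 5 in the shams (27.4%). Phlda3 was the exception in both lobes (q = 0.29 and 0.316). In shams the genes that changed were Cdkn1a (q = 0.000388), Gadd45g (q = 0.00047), Gadd45b (q = 0.00936), Ccng1 (q = 0.0432) and Plk3 (q = 0.0441), while Gadd45a had q = 0.0509 and Plk2, at 10.28 to 11.34, had q = 0.489.

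Whether the lobe difference itself changed with time was tested on the 12 within-rat differences. It did for Gadd45a (q = 0.0033), Plk2 (q = 0.0371) and Gadd45g (q = 0.0495), 3 of 8 genes, where 0.709% of all tested probe sets passed. Gadd45a kept this call in all 12 fits that left out 1 rat, whereas Plk2 lost it in 8 of them and Gadd45g in 9. With no filter Gadd45a alone passed, Plk2 was also lost with trend and robust, Gadd45g with the dim filter and with quantile normalization, and all 3 with no block. For Gadd45a the difference rose by 2.35 from 0 to 0.5 hr (SE 0.24, q = 0.000898) and fell by 1.26 from 0.5 to 2 hr (SE 0.24, q = 0.0326). These steps passed for 0.154% and 0.931% of all tested probe sets, and the step from 2 to 6 hr, which no gene of the 8 passed (limma, 4 unadjusted), for 0.214%. From 0.5 to 2 hr it fell by 1.28 for Plk2 (SE 0.23, q = 0.0208) and by 3.04 for Gadd45g (SE 0.53, q = 0.0171). Of the other 5 genes, Gadd45b had q = 0.144, and the mean lobe difference of Ccng1 was -0.11, -0.18, 1.28 and 0.92 at the 4 times (q = 0.366).

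Other genes of the p53 circuit were read from lists of its regulators and targets. Of 27 targets outside the 9 genes, 17 were tested. None passed limma's test against all shams at 0 or 0.5 hr in either lobe (3 and 1 unadjusted in reperfused lobes, 2 and 5 in non-ischemic lobes). At 2 hr 2 were higher and 4 lower in the reperfused lobes, and 2 higher and 2 lower in the non-ischemic lobes. At 6 hr it was 3 higher and 4 lower, and 0 higher and 6 lower. Of all tested probe sets 12.8% and 14% passed at 2 hr and 29.3% and 25.2% at 6 hr, so the counts at 6 hr are not far from that share. The median over the 17 was -0.16, -0.23, -0.22 and -0.36 in these 4 comparisons.

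Tnfrsf10b, a death receptor, was up at 2 hr by 1.41 in reperfused (SE 0.22, q = 0.000615) and 1.16 in non-ischemic lobes (SE 0.22, q = 0.00498), and Aen, an apoptotic nuclease, by 1.23 and 1.27 (q = 0.000481 and 0.00195). At 6 hr the reperfused lobes were higher for Tnfrsf10b by 1.07, for Aen by 0.84 and for Fas, another death receptor, by 1.12. The 6 hr values of these and the following genes were not refitted without array 3 of the reperfused lobes. Ccng2, the sister gene of Ccng1 and a known FoxO target, was lower by 1.44 and 1.54 at 2 hr and by 1.99 and 1.93 at 6 hr in reperfused and non-ischemic lobes. Sesn1, a stress sensor that restrains mTORC1, was lower at 6 hr by 1.43 and 1.39, Gls2, a mitochondrial glutaminase, by 1.59 and 1.08, and Tp53inp1, a p53 cofactor of cell death and autophagy, by 2.03 and 2.18. Between the lobes none of the 17 passed at any time without the block (0, 3, 1 and 0 unadjusted), and with the rat as a block Tp53inp1 (-0.90, q = 0.022) and Sesn2, a stress sensor like Sesn1 (-1.76, q = 0.0228), were lower in the reperfused lobes at 0.5 hr.

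With same-time shams 1 of the 17 passed in each lobe at 0.5 hr, below the share of all tested probe sets (11.4% reperfused, 12% non-ischemic). These were Sesn1, lower by 0.70 in reperfused lobes (q = 0.0272), and Tp53inp1, higher by 1.03 in non-ischemic lobes (q = 0.037). None did at 2 hr by limma (6 unadjusted in either lobe). At 6 hr 1 was higher and 3 lower in the reperfused lobes, and 2 lower in the non-ischemic lobes, where 18.8% and 15.2% of all tested probe sets passed. Tnfrsf10b was higher by 1.23 in the reperfused lobes (q = 0.00673), Ccng2 was lower by 2.73 and 2.67 and Sesn1 by 1.73 and 1.70 in reperfused and non-ischemic lobes, and Gls2 was lower by 1.21 in the reperfused lobes. Of 9 p53 regulators, 6 were tested. At 6 hr Mdm4, the partner of Mdm2, was higher in reperfused lobes than all shams by 0.62 (q = 0.0336) and than the 6 hr shams by 1.02 (q = 0.00666), whereas Ppm1d, a phosphatase that turns p53 off, was lower by 0.42 and 0.61.

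**Figure D4:**
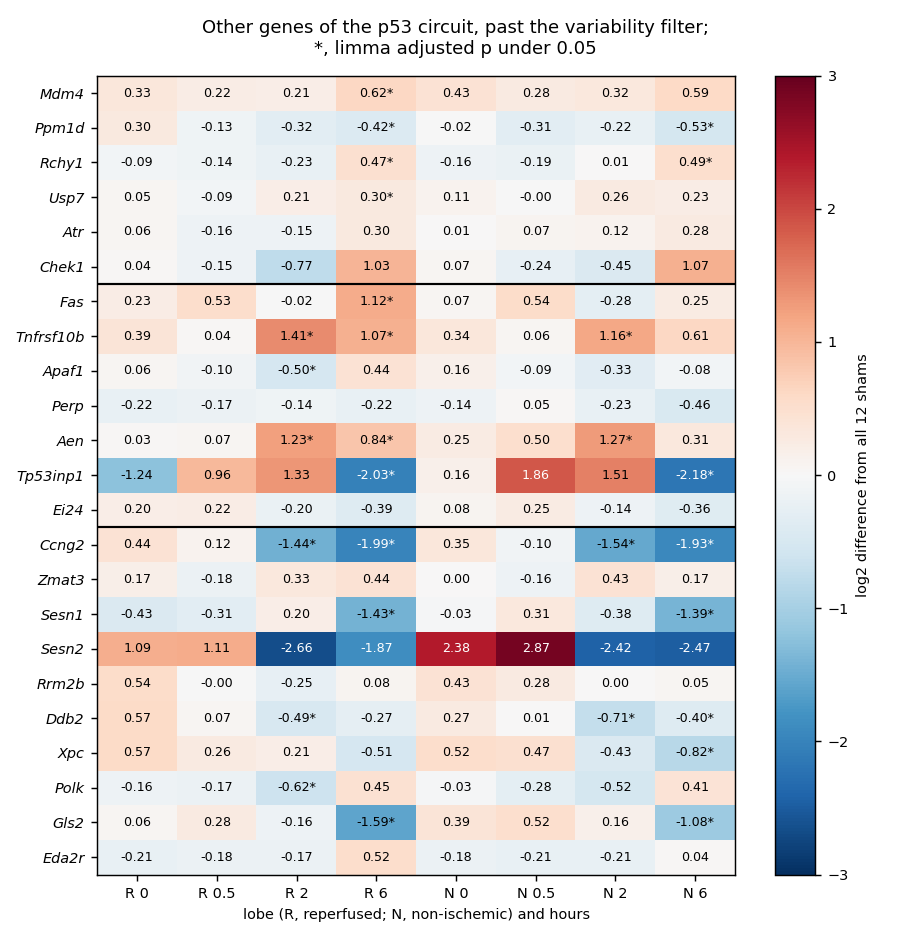
Log2 difference from all 12 shams (color and number) of 23 other genes of the p53 circuit in both lobes at 4 times, in blocks of regulators, cell death targets and targets in arrest, repair and metabolism; an asterisk marks limma's q under 0.05. Tnfrsf10b and Aen are called higher in both lobes at 2 hr and in the reperfused lobes at 6 hr, and Ccng2 lower in both lobes at 2 and 6 hr.

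Of 10 partners of the Gadd45 proteins, 7 were tested. Map2k3, a kinase that activates p38, was higher in the reperfused lobes at 2 hr by 1.82 against all shams (q = 8.15e-05), by 1.84 against the 2 hr shams (q = 0.0119) and by 1.13 against the non-ischemic lobe with the rat as a block (q = 0.00909). Pcna, the sliding clamp of DNA replication, was higher by 0.85 in the same lobes against all shams (q = 0.00815). Map3k4, which Gadd45 proteins switch on, was lower by 0.45 in the non-ischemic lobes at 2 hr (q = 0.029). Among 6 tested genes of G1, Cdkn1b, the p27 inhibitor, was lower at 2 hr by 0.62 and 0.66, and Ccnd1, cyclin D1, by 2.23 in the non-ischemic lobes at 6 hr. Against all shams, 12.8% (reperfused) and 14% (non-ischemic) of all tested probe sets passed at 2 hr. In the non-ischemic lobes at 6 hr it was 25.2%. All 5 proliferation genes were lower in shams than in unoperated livers, Mki67 by 2.38 (q = 0.00886), as was Plk1, the mitotic Polo-like kinase, by 1.64 (q = 0.0122). In that comparison 2.25% of all tested probe sets passed. None of these 6 genes passed against all shams in either lobe.

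Over all 39 arrays the 9 genes were only loosely tied to each other. The closest pairs by Pearson's r were Cdkn1a and Plk3 (0.742), Gadd45a and Gadd45b (0.68), Plk3 and Gadd45b (0.674) and Mdm2 and Ccng1 (0.67), over arrays that share times and rats. The array genes most like each member were Jun, Zfp36l1 and Ccn1 for Plk2 (0.746 to 0.759), Ccnl1, Klf4 and Rhob for Gadd45a (0.844 to 0.866), Maff, Noct and Enc1 for Gadd45b (0.831 to 0.846) and Myc, Irf2bp2 and Nrbf2 for Gadd45g (0.75 to 0.765). Cdkn1a was most like Tpm4, Sdc4 and Cyria (0.85 to 0.883), Plk3 like Sema6b, Pim3 and Ptp4a1l1 (0.848 to 0.867) and Ccng1 like Heatr6, Stk40 and Tead4 (0.889 to 0.894). For Mdm2 the closest gene was Piezo1 (0.892) and for Phlda3 Ripk2 (0.808), which fell to 0.601 and 0.528 over the 38 arrays left without array 3 of the reperfused lobes at 6 hr.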

How the data were processed

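The authors hybridized liver RNA to Affymetrix rat transcriptome arrays and, with Expression Console 1.0, made signal space transformed, RMA-normalized values, deposited as linear intensities for 23409 coding probe sets. The intensities were only converted to log2 here. The platform table gave 1 symbol to 19778 probe sets, more than 1 to 419 and no symbol to 3212, and each of the 9 genes was taken by the probe set with 1 symbol and the highest mean. Members and lists were chosen with earlier results of these data known. Groups were compared with limma 3.58.1 in R 4.3.3 (lmFit and eBayes, the compared groups alone, Benjamini-Hochberg over 11704 probe sets past the interquartile range filter). The number of arrays limits the precision. All 9 genes were named, with the 3 genes of highest Pearson r over 39 arrays for each and up to 3 list genes per direction in a comparison. Animal numbers pair the lobes of 1 rat: their deviations from the group means correlated at 0.142 to 0.843 over 12 pairs. Alternatives were no filter, a filter on dim probe sets, quantile normalization, eBayes with trend and robust, the animal as a block, 1 fit to 36 arrays, same-time shams and leaving out each array. The script was tested on simulated data. Promoter windows were RefSeq's, and all 9 genes matched by gene ID.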

Additional observations from a re-analysis of the deposited data

Results flagged for a closer look

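For 3 genes the difference between the reperfused and the non-ischemic lobe changed between times, by limma's F-test on the within-rat differences. The clamped lobes were always the left and median and the other always the right, so clamping and lobe cannot be told apart. At 0 hr no lobe had been reperfused. Gadd45a (q = 0.0033) had mean lobe differences of -0.59, 1.76, 0.50 and -0.09 at 0, 0.5, 2 and 6 hr. Plk2 (q = 0.0371) had 0.47, 1.63, 0.35 and 0.26. Gadd45g (q = 0.0495) had -0.77, 2.00, -1.04 and 0.00. Its 0 hr mean rested mostly on 1 rat, with differences of 0.17, -2.27 and -0.22. The call of Gadd45a held in all 12 fits that left out 1 rat, that of Plk2 was lost in 8 and that of Gadd45g in 9, and with no filter Gadd45a alone passed.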

How the results depend on the processing

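Counts are of the 8 tested genes (9 with no filter). With the animal as replicate block the lobe comparison at 0.5 hr had 3 calls in place of 1. At 2 hr it had 0 in place of 1 with no filter, with the dim filter, after quantile normalization, with trend and robust, and in 1 fit to 36 arrays. That single fit gave 1 call in place of 0 for each lobe at 0 hr against pooled shams and 2 in place of 1 for the non-ischemic lobes at 0.5 hr. Same-time shams gave 5 in place of 3 (reperfused, 0.5 hr), 1 in place of 3 (reperfused, 2 hr), 4 in place of 1 (non-ischemic, 0.5 hr) and 0 in place of 3 (non-ischemic, 2 hr). No filter or the dim filter gave 2 in place of 1 for the reperfused lobes at 6 hr, and no filter 3 in place of 5 for shams across times. The change of the lobe difference with time had 1 call with no filter (Gadd45a) and 0 with no replicate block, in place of 3. The cause was not tested.

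Leaving out 1 array in turn gave 0 to 1 calls for the lobes at 0.5 hr, 0 at 2 hr, 0 to 1 (reperfused, 0 hr), 2 to 4 (reperfused, 0.5 hr), 1 to 4 (reperfused, 2 hr), 1 to 4 (non-ischemic, 2 hr), 0 to 1 (non-ischemic, 6 hr), 0 to 1 (shams against unoperated), 3 to 5 (shams across times) and 1 to 3 (lobe difference with time). With same-time shams, chosen after seeing the data, 3 genes passed at 6 hr without reperfused array 3 (27.5% of all tested probe sets) and 5 at 0.5 hr without reperfused array 1 (7.13%). The difference of Cdkn1a in reperfused lobes at 6 hr from all shams, 0.17, was -0.43 to 0.60 without 1 reperfused array and -0.11, -0.05 and -0.09 without 1 of the 6 hr shams. That of Gadd45a in non-ischemic lobes at 6 hr turned from -0.33 to 0.78 with same-time shams. Groups of 3 arrays limit all of these.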
